A study of Homo sapiens with 12 samples.

Results

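The 10 genes described here encode human enzymes that make serine, can supply carbon to its synthesis, or cleave or convert serine and glycine: PHGDH, PSAT1, PSPH, PCK2, GLDC, AMT, GCSH, GCAT, SRR and SDSL. They were taken by gene name from the 58735 gene names counted in each of the deposited tables, and all 10 were present in both. RNA-seq was performed on KELLY cells, a MYCN-amplified human neuroblastoma line, and on SK-N-AS cells, a neuroblastoma line without MYCN amplification. Each line was treated for 24 h with Erastin, an inhibitor of cystine uptake through the xCT antiporter that induces ferroptosis, or with DMSO, the solvent, as control. Erastin was used at 1 µM in KELLY and at 2 µM in SK-N-AS, so a difference in response between the lines cannot be told apart from a difference in dose. Each of the 4 groups held 3 samples (n = 3), seeded in parallel wells according to the methods. The p-values measure the spread between these samples, and each line stands for itself as a single model.

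Serine synthesis branches from glycolysis: PHGDH oxidises 3-phosphoglycerate, PSAT1 transfers an amino group from glutamate, and PSPH removes the phosphate to give serine. Serine hydroxymethyltransferases, which are not among the 10 genes, convert serine to glycine. The mitochondrial glycine cleavage system (GLDC, AMT, GCSH and a shared lipoamide dehydrogenase) breaks glycine down to feed one-carbon units into folate. PCK2, the mitochondrial phosphoenolpyruvate carboxykinase, can supply carbon to the pathway when glucose is low. Serine and glycine are also needed for cysteine and glutathione, the latter the main thiol lost when cystine import is blocked.

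The 12 samples held between 24169796 and 29835670 counts in genes. All 7 adrenergic neuroblast markers examined had counts in both lines, with summed levels of 2327 to 5152 CPM (counts scaled to a common library size) in KELLY and 913 to 1024 CPM in SK-N-AS, where TH and DBH stayed under 6 CPM. The 5 mesenchymal markers summed to 85.1 to 125 CPM in KELLY and 1981 to 2352 CPM in SK-N-AS. Of the 8 blood cell genes, PTPRC reached 454 to 620 CPM in every SK-N-AS sample and was at 0 in KELLY, CD3E was at 0 in all samples, and HBB reached 8.09 CPM in a KELLY DMSO sample. Their part in the results below was not tested. The relation of read count to the GC content of the transcript differed between libraries of one group: across 11171 genes, Spearman's rho between GC content and the log2 ratio to the line mean was -0.86, 0.74 and -0.50 in the KELLY DMSO samples and 0.89, -0.70 and 0.26 in the KELLY Erastin samples, while in SK-N-AS it ran from -0.79 to 0.81. Results were therefore also computed after this trend was removed from each library, and both values are given where the call of a member or the count of a list differed.

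Under control conditions PHGDH had the largest difference between the lines among the 10 members. In DMSO-treated KELLY cells PHGDH stood at 166, 287 and 223 CPM (replicates 1 to 3, scaled by the trimmed mean of M values, TMM), from 4281, 7069 and 6378 counts. In DMSO-treated SK-N-AS cells it stood at 8.43, 8.19 and 6.17 CPM, from 229, 206 and 164 counts. The groups were far apart, and the log2 difference, SK-N-AS minus KELLY, was -4.89 ± 0.29 (SE; adjusted p = 1.46e-08, edgeR quasi-likelihood test across all genes), a 29.7-fold lower level in SK-N-AS. In bulk samples a smaller share of expressing cells and less RNA per cell cannot be told apart. Of the 10 members, 6 differed between the DMSO groups and 5 of them were lower in SK-N-AS, beside a background of 63.3% of the 18239 genes tested that differed in either direction and 31.9% that were lower. A count of 6 in 10 is therefore close to that of all genes.

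GLDC, the decarboxylase that opens glycine cleavage, was at 21.4, 25.2 and 25.4 CPM in KELLY DMSO cells and at 4.97, 4.53 and 4.62 CPM in SK-N-AS DMSO cells, with no overlap (log2 difference -2.35 ± 0.19, adjusted p = 2.32e-07, edgeR). PSPH was at 42.4, 45.6 and 43.0 CPM in KELLY and at 19.8, 20.8 and 20.6 CPM in SK-N-AS (-1.10 ± 0.12, adjusted p = 5.66e-06). GCAT, which works with threonine dehydrogenase to make glycine from threonine in many mammals, was at 17.5, 31.1 and 24.5 CPM in KELLY and at 12.6, 11.3 and 8.80 CPM in SK-N-AS (-1.16 ± 0.24, adjusted p = 0.00101). All 3 were thus lower in SK-N-AS in every sample. PSAT1 was closer, at 130, 90.2 and 98.7 CPM in KELLY and 63.3, 76.8 and 78.7 CPM in SK-N-AS (-0.54 ± 0.18, adjusted p = 0.0184, edgeR). This call rested on single libraries, with an adjusted p of 0.0739 without SK-N-AS DMSO replicate 1 and 0.0800 without KELLY DMSO replicate 1. The only member that passed the test in the other direction was SDSL, a serine dehydratase-like enzyme of serine breakdown, at 6.18, 5.96 and 4.10 CPM against 0.58, 1.02 and 0.59 CPM in KELLY (2.89 ± 0.34, adjusted p = 9.52e-06).

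PCK2, GCSH, SRR and AMT did not pass the test between the DMSO groups. PCK2 was at 25.5, 39.2 and 26.6 CPM in KELLY and at 27.6, 29.02 and 22.1 CPM in SK-N-AS, ranges that overlapped (-0.21 ± 0.23, adjusted p = 0.428, edgeR). With the GC trend removed its difference was -0.34 (adjusted p = 0.0311, edgeR), so this call depended on the correction. GCSH, the lipoyl carrier protein of glycine cleavage, spread widely within each group, with a range of 13.4 to 28.97 CPM for KELLY and of 18.4 to 35.6 CPM for SK-N-AS. SRR, serine racemase, lay between 2.44 and 4.30 CPM in KELLY and between 3.02 and 3.53 CPM in SK-N-AS. AMT, the aminomethyltransferase of glycine cleavage, had at most 12 counts in any DMSO sample, too few for a reliable comparison.

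Per kilobase of the canonical transcript, the order of the members differed between the lines. In KELLY DMSO cells PHGDH was highest (121 ± 32.4 CPM per kb, SD), followed by PSAT1 (48.2 ± 9.56) and PSPH (22.1 ± 0.867), and the sample ranges of these neighbours did not overlap. In SK-N-AS DMSO cells PSAT1 was highest (33.1 ± 3.81 CPM per kb) and PHGDH was the 7th of the 10 members (4.07 ± 0.666), within the range of SDSL (4.15 ± 0.877). The per-kilobase ratio of PHGDH to PSAT1 was 1.51, 3.76 and 2.67 in the KELLY DMSO samples and 0.157, 0.126 and 0.0926 in the SK-N-AS DMSO samples. PHGDH thus exceeded PSAT1 in every KELLY control sample and was below it in every SK-N-AS one. GCAT, PCK2 and GCSH in KELLY overlapped each other, as did GCSH, PCK2 and PSPH between neighbours in SK-N-AS. AMT was lowest in both.

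**Figure D1:**
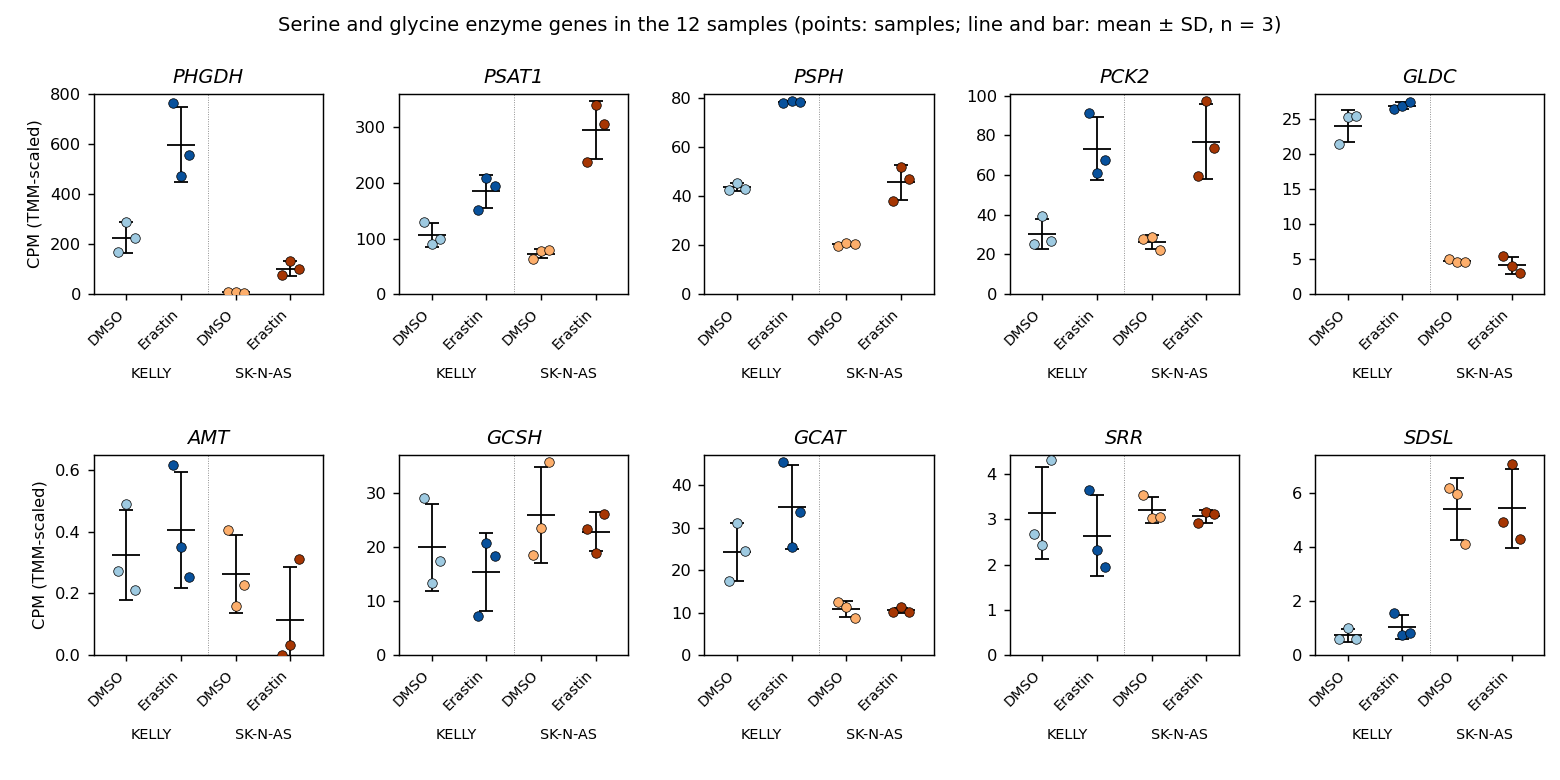
TMM-scaled CPM (y axis, linear, from 0, a separate scale for each gene) of the 10 members in the 4 groups (x axis). Points are samples and the horizontal line with its bar is the mean ± SD (n = 3): PHGDH, PSAT1, PSPH and PCK2 had all Erastin samples above all DMSO samples in both lines, and PHGDH in SK-N-AS Erastin cells (75.0 to 132 CPM) stayed below KELLY DMSO cells (166 to 287 CPM).

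In SK-N-AS cells the 3 enzymes of serine synthesis and PCK2 rose with Erastin, and no other member passed the test. PHGDH rose from 8.43, 8.19 and 6.17 CPM to 75.0, 132 and 99.7 CPM, with counts of 2034, 3891 and 2557 in the Erastin samples. The lowest Erastin sample was thus well above the highest DMSO sample, and the log2 fold change was 3.76 ± 0.20 (SE; 13.6-fold, adjusted p = 1.55e-06, edgeR). PSAT1 rose from 63.3, 76.8 and 78.7 CPM to 238, 340 and 306 CPM (2.02 ± 0.13, 4.07-fold, adjusted p = 6.18e-06, edgeR). PSPH, the phosphatase that completes the pathway, rose from 19.8, 20.8 and 20.6 CPM to 38.1, 51.8 and 47.0 CPM (1.17 ± 0.12, 2.25-fold, adjusted p = 3.51e-04). PCK2 rose from 27.6, 29.02 and 22.1 CPM to 59.7, 97.3 and 73.5 CPM (1.56 ± 0.16, 2.95-fold, adjusted p = 4.16e-04). In each of these 4 genes the second Erastin replicate was highest and the first lowest, and none overlapped with its DMSO samples.

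Thus 4 of the 9 members tested rose in SK-N-AS, where 0.46% of the 16095 genes tested rose. Under the second call rule, taken from the methods (an unadjusted p of 0.05 or less together with a change of 1.5-fold or more), the same 4 members were called beside 1.34% of all genes, and 6.98% of all genes had every Erastin sample above every DMSO sample. The other 5 tested members had log2 fold changes between -0.18 and 0.02 with standard errors of 0.14 to 0.21. GLDC was at 4.97, 4.53 and 4.62 CPM with DMSO and at 5.42, 3.98 and 2.96 CPM with Erastin (-0.18 ± 0.20, adjusted p = 0.883, edgeR). GCSH, GCAT, SRR and SDSL likewise overlapped between the groups, the last at 6.18, 5.96 and 4.10 CPM with DMSO and 4.90, 7.08 and 4.29 CPM with Erastin. Whether these members differed in response from the 4 that rose was not tested. AMT failed the filter on low counts in either line and showed 11, 4 and 6 counts in the DMSO samples against 0, 1 and 8 after Erastin. The count of 0 allows a level of up to 0.111 CPM (3 counts in that library, counting error only).

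In KELLY cells the same 4 genes were higher with Erastin in every sample, but none passed the adjusted threshold in the counts as deposited. PHGDH was at 166, 287 and 223 CPM with DMSO and at 763, 471 and 556 CPM with Erastin, a log2 fold change of 1.41 ± 0.25 (SE; 2.65-fold, adjusted p = 0.540, edgeR). PSAT1 was at 130, 90.2 and 98.7 CPM with DMSO and at 151, 209 and 195 CPM with Erastin (0.80 ± 0.20, adjusted p = 0.770, edgeR). These ranges did not overlap, although the lowest Erastin sample of PSAT1 exceeded the highest DMSO sample by little. PSPH was the tightest, at 42.4, 45.6 and 43.0 CPM with DMSO and at 78.1, 78.9 and 78.6 CPM with Erastin (0.85 ± 0.14, adjusted p = 0.369, edgeR). PCK2 was at 25.5, 39.2 and 26.6 CPM with DMSO and at 91.1, 60.8 and 67.7 CPM with Erastin (1.27 ± 0.24, adjusted p = 0.634, edgeR).

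The adjusted threshold was hard to reach in KELLY: 0.00615% of the 16258 genes tested rose past it, which is 1 gene, with 430 genes at an unadjusted p under 0.05. By the second rule 4 of the 9 members tested were called, all higher with Erastin, beside 1.29% of all genes. GLDC was the 5th member whose samples did not overlap, beside 4.2% of all genes higher in every Erastin sample. Its difference was small, at 21.4, 25.2 and 25.4 CPM with DMSO against 26.5, 26.9 and 27.4 CPM with Erastin (0.17 ± 0.15, adjusted p = 0.770, edgeR). The biological coefficient of variation was 0.246 in KELLY and 0.105 in SK-N-AS.

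The members' values in KELLY moved with the GC trend of the libraries. PHGDH, PCK2, GCAT and SDSL, whose canonical transcripts have a GC content of 58.1% to 61.9%, were each highest in DMSO replicate 2 and in Erastin replicate 1, the libraries with a rho of 0.74 and 0.89. PSAT1 and GCSH, with 42.5% and 41.5%, were lowest in those libraries. SRR, at 42.7%, was lowest in the first of them and highest in the second, and so departed from this order.

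With the trend removed, all 4 genes rose in KELLY beside 0.197% of all genes. The log2 fold changes were 1.15 ± 0.07 for PHGDH (adjusted p = 3.82e-04, edgeR), 0.95 ± 0.08 for PSAT1 (adjusted p = 0.00116), 0.85 ± 0.07 for PSPH (adjusted p = 0.00116) and 0.99 ± 0.11 for PCK2 (adjusted p = 0.00529). Their standard errors were 0.14 to 0.25 before the correction, and the largest shift in log2 fold change among these 4 was that of PCK2. With replicate number entered as a block beside the GC correction, 0 of these 4 passed (adjusted p = 0.0580 to 0.0950, edgeR). DESeq2 on the uncorrected counts called PHGDH, PSPH and PCK2. In SK-N-AS the same 4 members rose with the correction, beside 3.14% of all genes.

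The remaining members in KELLY did not pass under either treatment of the counts. GCSH was at 28.97, 13.4 and 17.5 CPM with DMSO and at 7.18, 20.8 and 18.3 CPM with Erastin (-0.37 ± 0.43, adjusted p = 0.771, edgeR), so the first replicate of each group was the extreme one in opposite directions. GCAT was at 17.5, 31.1 and 24.5 CPM with DMSO and at 45.3, 25.5 and 33.6 CPM with Erastin (0.52 ± 0.28, adjusted p = 0.770), a difference that was 0.16 ± 0.09 with the GC trend removed. SDSL went from 0.51 ± 0.44 to 0.14 ± 0.34 in the same way, on 15 to 38 counts per sample. SRR had 54 to 123 counts per sample (-0.25 ± 0.34), and AMT had 6 to 15 and was not tested.

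**Figure D2:**
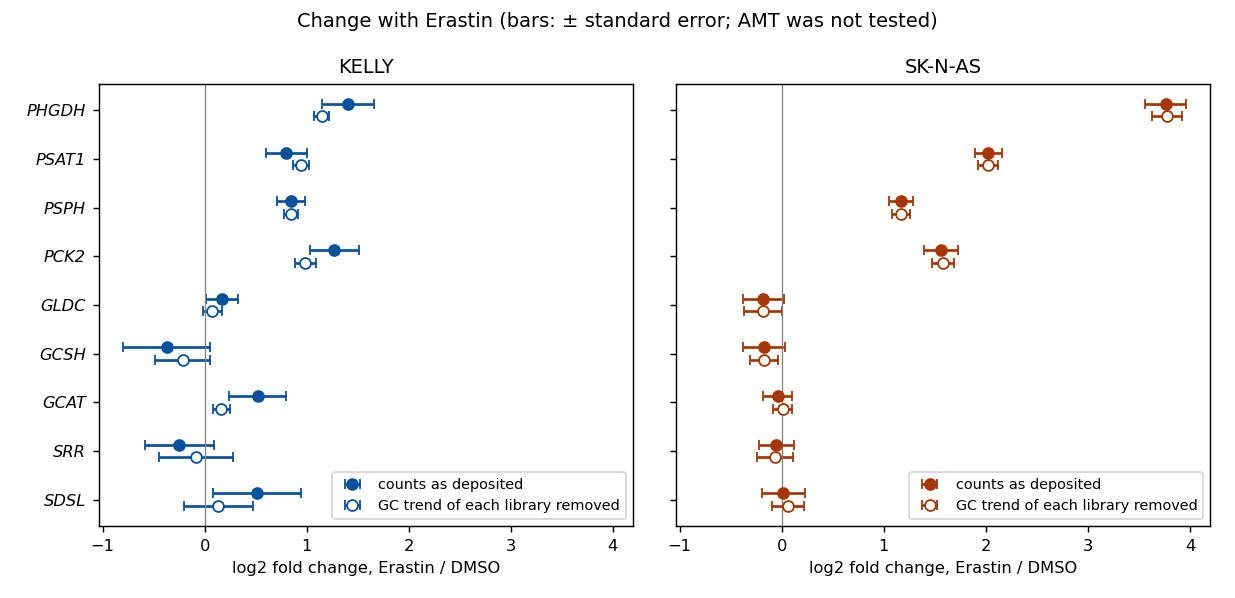
Log2 fold change of Erastin over DMSO (x axis) for the 9 members tested, with KELLY on the left and SK-N-AS on the right. Bars are ± standard error, filled points are the counts as deposited and open points have each library's GC trend removed: PHGDH was at 3.76 in SK-N-AS and 1.41 in KELLY, and the open points of KELLY carry shorter bars for the 4 genes at the top.

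The promoters of the genes that moved together are shown so that their sequence can be compared with that of a member that did not. The sequences are those of RefSeq on GRCh38.p14, from 250 bases before to 50 bases after the annotated start, 5′ to 3′ on the strand of the gene, and were found for 8 members (not PSPH and SDSL). They lie at chr1:119711684-119711983 (PHGDH, plus strand), chr9:78296875-78297174 (PSAT1, plus strand), chr14:24094061-24094360 (PCK2, plus strand) and chr16:81096346-81096645 (GCSH, minus strand). Capitals mark the CCAAT box (CCAAT or its reverse complement ATTGG) and, in GCSH, also a match to the antioxidant response element core.
PHGDH: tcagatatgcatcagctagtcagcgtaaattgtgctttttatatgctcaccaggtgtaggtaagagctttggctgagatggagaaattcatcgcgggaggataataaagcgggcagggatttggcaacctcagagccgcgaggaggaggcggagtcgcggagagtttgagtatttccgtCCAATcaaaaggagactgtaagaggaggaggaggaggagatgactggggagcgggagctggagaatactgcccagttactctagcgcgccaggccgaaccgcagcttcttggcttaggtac
PSAT1: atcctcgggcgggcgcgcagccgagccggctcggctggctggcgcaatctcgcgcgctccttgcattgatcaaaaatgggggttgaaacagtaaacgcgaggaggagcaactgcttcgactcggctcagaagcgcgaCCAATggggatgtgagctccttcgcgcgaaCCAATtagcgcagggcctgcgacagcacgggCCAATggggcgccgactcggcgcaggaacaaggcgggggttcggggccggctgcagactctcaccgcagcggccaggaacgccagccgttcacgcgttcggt
PCK2: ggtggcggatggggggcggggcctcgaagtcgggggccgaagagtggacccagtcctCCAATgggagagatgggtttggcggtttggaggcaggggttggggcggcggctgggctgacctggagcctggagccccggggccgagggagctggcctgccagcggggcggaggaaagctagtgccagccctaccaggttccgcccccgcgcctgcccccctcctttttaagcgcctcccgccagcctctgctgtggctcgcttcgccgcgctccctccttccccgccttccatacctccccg
GCSH: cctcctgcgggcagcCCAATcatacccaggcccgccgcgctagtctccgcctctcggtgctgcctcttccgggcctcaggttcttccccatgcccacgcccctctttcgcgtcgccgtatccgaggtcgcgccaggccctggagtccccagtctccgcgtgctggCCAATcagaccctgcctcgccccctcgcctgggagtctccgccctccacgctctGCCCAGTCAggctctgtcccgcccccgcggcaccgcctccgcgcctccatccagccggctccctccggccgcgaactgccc

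PSAT1 held 3 CCAAT boxes, at positions -113, -83 and -52 from the start, PHGDH held 1 at -71 and PCK2 held 1 at -193. GCSH, which did not pass the test in either line, held 2. In all, 7 of the 8 promoters had a CCAAT box, SRR being the exception, beside 34.6% of 35116 promoters of the same length. This motif was chosen after the sequences were seen, and it was present in members that rose and in members that did not pass. Of 3 further motifs searched on both strands, TGATGNAA (the core of the C/EBP-ATF response element, in 3.62% of all promoters) and CACGTG (the E-box, in 7.26%) matched none of the 8 windows. TGACNNNGC (the antioxidant response element core, in 13.3%) matched GCSH alone, at position -31. No motif overlapped another, and the lack of a match says only that these letters are not in these windows.

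The response of PHGDH and PSAT1 was larger in SK-N-AS than in KELLY, but this difference was not called in the counts as deposited with the edgeR test used here, and its call depended on the processing. The interaction, the log2 fold change in SK-N-AS minus that in KELLY in a fit of all 12 samples, was 2.35 ± 0.36 for PHGDH (adjusted p = 0.211, edgeR) and 1.22 ± 0.25 for PSAT1 (adjusted p = 0.652, edgeR). In that fit 0 of the 10 members and 0.00548% of all genes were called, with 776 of 18239 genes at an unadjusted p under 0.05, among them these 2 members. With the trend removed the interaction was 2.63 ± 0.19 for PHGDH (adjusted p = 8.45e-06, edgeR) and 1.07 ± 0.15 for PSAT1 (adjusted p = 0.00935), where 0.126% of all genes were called. DESeq2, and edgeR without a filter on low counts, called the same 2 members in uncorrected counts. PSPH (0.31 ± 0.17, adjusted p = 0.811, edgeR) and PCK2 (0.28 ± 0.32, adjusted p = 0.813, edgeR) had interactions that passed under neither treatment of the counts.

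The larger induction in SK-N-AS did not close the gap in PHGDH. With Erastin, PHGDH was at 75.0 to 132 CPM in SK-N-AS and 471 to 763 CPM in KELLY (log2 difference, SK-N-AS minus KELLY, -2.54 ± 0.26, adjusted p = 2.27e-06, edgeR), and even the highest SK-N-AS Erastin sample was below the lowest KELLY DMSO sample. The order of the lines turned for PSAT1, which was lower in SK-N-AS with DMSO and higher in SK-N-AS with Erastin (0.67 ± 0.18, adjusted p = 0.00551, edgeR). PSPH (-0.78 ± 0.12), GLDC (-2.71 ± 0.19) and GCAT (-1.73 ± 0.24) remained lower and SDSL (2.38 ± 0.33) remained higher in SK-N-AS. This comparison of the Erastin groups was added after the data were seen.

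**Figure D3:**
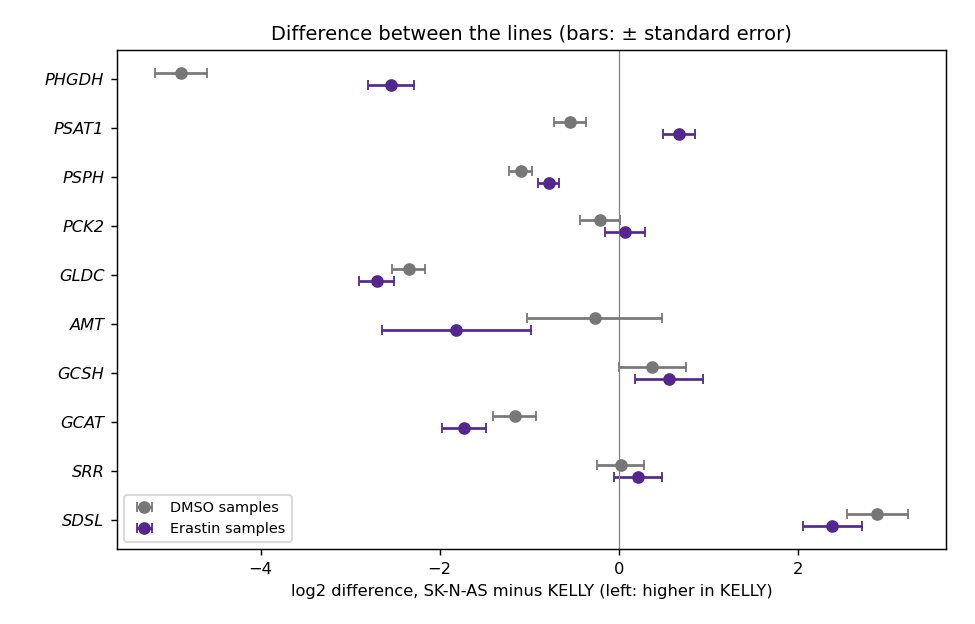
Log2 difference between the lines, SK-N-AS minus KELLY (x axis), for the 10 members in the DMSO samples (grey) and in the Erastin samples (purple), with bars of ± standard error. PHGDH moves from -4.89 to -2.54 and PSAT1 from -0.54 to 0.67, while GLDC, GCAT and SDSL keep their side.

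Summed over PHGDH, PSAT1 and PSPH, the level was 376 ± 43.1 CPM in KELLY with DMSO and 860 ± 119 CPM with Erastin (SD, n = 3). In SK-N-AS it was 101 ± 8.15 CPM with DMSO and 443 ± 87.0 CPM with Erastin. PHGDH made up 49.1% to 67.9% of that sum in KELLY DMSO samples, 62.0% to 76.9% in KELLY Erastin samples, 5.84% to 9.21% in SK-N-AS DMSO samples and 21.3% to 25.2% in SK-N-AS Erastin samples. In SK-N-AS the per-kilobase ratio of PHGDH to PSAT1 was 0.372, 0.460 and 0.385 with Erastin, above all its DMSO values and below all KELLY values. The ratio of PSAT1 to PSPH in SK-N-AS was 2.86 to 3.42 with DMSO and 5.60 to 5.88 with Erastin, so that these members did not rise in proportion.

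Some members share sequence with other genes, which limits their counts. GCSHP5, a processed copy of GCSH, held counts equal to 27.6% to 33.8% of those of GCSH in the 4 groups, so reads of GCSH may be split between the pair. PSPHP1, a copy of PSPH, was at 0 in all KELLY samples and in SK-N-AS reached 42, 93 and 110 counts under DMSO and 71, 54 and 87 under Erastin. In SK-N-AS this equals 15.2% of the PSPH counts under DMSO and 5.64% under Erastin. The effect of this copy on the PSPH differences was not tested. In the GENCODE 44 annotation AMT shares 62.6% of its exon bases with another protein-coding gene on the same strand, and SRR shares 35.2% with TSR1 on the opposite strand. Whether the counting used strand is not given in the sources used here.

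The genes whose level followed PHGDH most closely over the 12 samples, with each line centred on its own mean, were SLC7A1 (Pearson's r = 0.987), ATF4 (0.986), SLC1A4 (0.982), AARS (0.977) and CHAC1 (0.973), of 14337 genes ranked. SLC7A1 carries cationic amino acids, SLC1A4 carries neutral amino acids including serine, ATF4 is the transcription factor of the amino acid response, AARS charges alanine transfer RNA and CHAC1 degrades glutathione. Among the members, PSPH ranked 14th (0.950), PCK2 22nd (0.938) and PSAT1 24th (0.931). GCAT (0.305), SDSL (0.296), SRR (-0.114), GLDC (-0.275) and GCSH (-0.361) lay far down the order. These values describe 12 samples that share the treatment and each library's GC trend.

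A list of 65 other genes of serine, glycine and one-carbon metabolism gave the setting of these changes. In SK-N-AS 10 of the 57 tested rose and 0 fell (edgeR, adjusted), beside 0.46% of all genes that rose. With the GC trend removed 14 rose and 3 fell, beside 3.14% of all genes that rose and 625 of 16095 that fell. In the counts as deposited, those that rose were 3 of 11 hydroxymethyl and folate genes, 3 of 9 carriers and 3 of 9 transcription factors. Among other users of serine, glycine and threonine 1 of 16 rose. For glycolytic supply it was 0 of 7 genes, and for partners of glycine cleavage 0 of 5. With the GC trend removed, 5 carriers and 3 other users rose, and 1 carrier, 1 other user and 1 gene of glycolytic supply fell. The other groups kept their counts. In the deposited counts the list medians lay between -0.10 and 0.21 on the log2 scale, beside -0.01 over all genes. Most listed genes thus stayed near 0. By smallest p, ATF4 rose by a log2 fold change of 1.51 ± 0.09 (adjusted p = 5.16e-06, edgeR), MTHFD2, the mitochondrial folate dehydrogenase, by 1.49 ± 0.10 (adjusted p = 6.18e-06), and SLC1A4 by 2.14 ± 0.16 (adjusted p = 1.85e-05). SLC6A9, a glycine transporter, rose by 2.03 ± 0.15 (adjusted p = 1.94e-05, edgeR) and SHMT2, the mitochondrial enzyme that makes glycine from serine, by 1.04 ± 0.13 (adjusted p = 0.00161).

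In KELLY 0 of the 56 listed genes tested passed the adjusted threshold (edgeR), 9 were higher and 1 lower by the second rule, and 7 rose with the GC trend removed. Over all genes, 1.29% were higher by the second rule, 121 of 16258 were lower by it, and 0.197% rose with the trend removed. The 5 with the smallest p were SLC1A4 (1.16 ± 0.16, adjusted p = 0.192, edgeR), ATF3 (1.02 ± 0.16), SLC6A9 (1.63 ± 0.26), ALDH1L2 (1.23 ± 0.24) and ATF4 (0.81 ± 0.19). ATF3 is a stress-induced transcription factor and ALDH1L2 the mitochondrial formyltetrahydrofolate dehydrogenase. ALDH1L2 was at 36.2 ± 7.07 CPM in KELLY DMSO cells and at 0.858 ± 0.127 CPM in SK-N-AS DMSO cells, where its log2 fold change with Erastin was 0.30 ± 0.31. Between the DMSO groups 18 of the 60 listed genes tested were called higher and 24 lower in SK-N-AS. This share was near that of all genes, of which 63.3% were called and 31.9% were lower. With the GC trend removed 18 listed genes were higher and 31 lower, beside 6314 higher and 7280 lower of all 18239 genes tested.

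**Figure D4:**
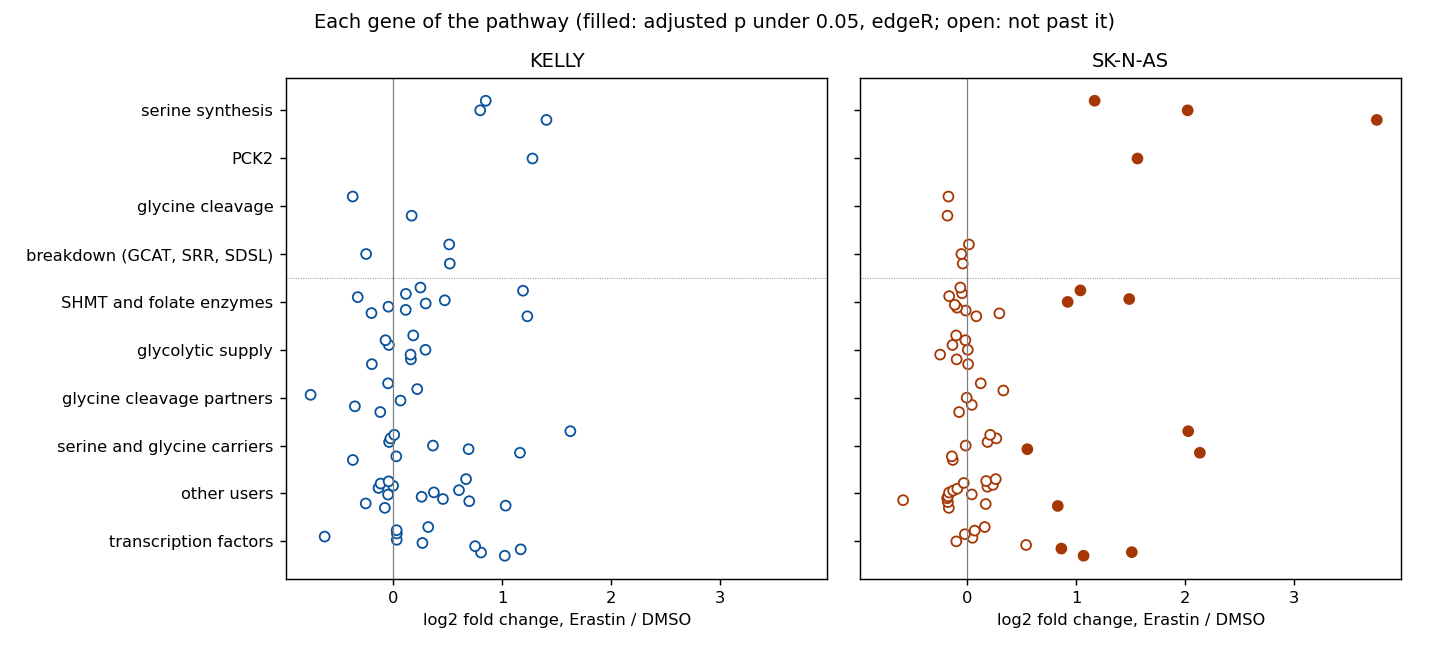
Log2 fold change of Erastin over DMSO (x axis) for each tested member (above the dotted line) and each tested gene of the 6 pathway groups (below it), with KELLY on the left and SK-N-AS on the right. Filled points passed an adjusted p under 0.05 in edgeR and open points did not: 4 members and 10 listed genes are filled in SK-N-AS, and none is filled in KELLY.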

How the data were processed

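Total RNA of KELLY and SK-N-AS cells was sequenced as paired-end libraries, and the authors trimmed the reads with Trimmomatic and, after alignment to GRCh38, obtained gene counts with HTSeq. The aligner and the counting mode are not given in the sources used here. The deposited counts, 1 table per line and not normalized, were used as given. The tables held 1568 repeated gene names and 0 columns without a sample.

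Counts were tested in R 4.3.3 with edgeR 4.0.16 (filterByExpr, TMM, quasi-likelihood test, Benjamini-Hochberg adjustment over all genes), in each line by itself, and in 1 fit of 12 samples for the interaction and the differences between lines. A call was an adjusted p under 0.05. Standard errors of edgeR were the size of the log2 difference divided by the square root of its F statistic. With the GC correction they take the fitted trend as known. DESeq2 1.42.0 and limma 3.58.1 were alternatives. The GC trend was a loess curve (span 0.5, degree 2) fitted, per library, to the log2 ratio over the mean of the samples against the GC content of the canonical GENCODE 44 transcript, known for 88.3% and 89.0% of tested genes in KELLY and SK-N-AS, and was entered as an offset. The edgeR fits without GC correction were checked on simulated counts that held no GC trend. The other settings were not simulated. Named were all members, the 5 listed genes with the smallest p per line and the 5 genes closest to PHGDH. Members, lists and motifs were chosen with earlier results of these data known.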

Additional observations from a re-analysis of the deposited data

How the results depend on the processing

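Under other settings (scaling, filter, tool, GC correction, pairing, each library left out), 874 differences of single members and counts of called members were computed. In 809 a difference kept direction and side of the threshold, or a count stayed close to the main fit. In 35 a difference gained the threshold or a count was higher, so the same gain can enter as both. The threshold was lost in 2 (PSAT1 between the DMSO groups, given above), and 28 differences changed sign. In SK-N-AS 4 members were called under each of 17 alternatives. In KELLY, where none was called in the counts as deposited, 4 were called with the GC correction, 3 with DESeq2, 2 without a filter on low counts and 1 with all 12 samples fitted together. Over all genes, those settings called 32, 30, 19 and 17 as risen, of 16258, 16258, 30593 and 18239 tested. With both KELLY first replicates left out, a setting added after the data were seen, 3 were called in KELLY and 7 between the DMSO groups, where GCSH was gained (adjusted p = 0.0140, edgeR). For the interaction, the GC correction, DESeq2, no filter, and the replicate block with GC correction each called 2. Leaving out both KELLY first replicates called 1. Over all genes, these settings in turn called 15, 7, 3, 8 and 1 positive and 8, 5, 5, 5 and 2 negative interactions. Leaving out single libraries gave 0 called members in KELLY and for the interaction, and 4 in SK-N-AS. Between the DMSO groups it gave 5 to 6 (5 to 7 over all alternatives), beside 63.3% of all genes called in the counts as deposited. The cause of these differences between settings was not tested.

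Only differences that did not pass the threshold in the counts as deposited changed sign. With both KELLY first replicates left out, the log2 fold change in KELLY was 0.34 for GCSH and -0.020 for SDSL, the interaction was -0.51 for GCSH and 0.034 for SDSL, and the difference of SRR between the DMSO groups was -0.11. GCAT in SK-N-AS was at 0.0099 with the GC correction and 0.0092 with the replicate block added. SRR between the DMSO groups was at -0.0046 with the GC correction, -0.0093 with library size alone, -0.027 with protein-coding genes only and -0.016 with the replicate block and GC correction. When single libraries were left out, the log2 fold change in KELLY ran from -0.65 to 0.0037 for GCSH and from -0.56 to 0.042 for SRR. In SK-N-AS it ran from -0.42 to 0.0062 for GLDC, from -0.37 to 0.13 for GCSH, from -0.17 to 0.078 for GCAT, from -0.088 to 0.024 for SRR and from -0.22 to 0.16 for SDSL. The interaction ran from -0.18 to 0.49 for GCSH and from -0.11 to 0.49 for SRR, and the difference between the DMSO groups from -0.33 to 0.013 for PCK2, from -0.72 to 0.14 for AMT and from -0.13 to 0.32 for SRR.

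The main test did not pair samples by replicate number. Deviations of same-numbered samples, without the GC correction, correlated at -0.83, -0.87 and -0.21 in KELLY and at -0.16, 0.27 and 0.52 in SK-N-AS. These deviations also carry each library's GC trend, so the correlations cannot settle whether the numbers pair the samples. Not every sample correlated best with its own number. With the replicate block 0 members were called in KELLY and for the interaction. With GC correction added, KELLY again had 0, against 4 without the block. The block called 4 in SK-N-AS, beside 146 of 16095 genes risen. Between the DMSO groups it called 6, beside 5432 genes higher and 5485 lower of 18239.

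Depth limited AMT, with 0 to 15 counts per sample, and SDSL in KELLY.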
